A study of Mus musculus with 9 samples.

Results

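Somatostatin and cortistatin are related peptides, and 6 genes for them and for their receptors were described in single neurons of the mouse central amygdala. They are the ligand genes Sst and Cort and the receptor genes Sstr1, Sstr2, Sstr3 and Sstr4, taken by symbol from a table of 22601 gene rows, of which 22299 held a count. All 6 were found in the table and all 6 had counts. Cells were microdissected and dissociated from acute slices of wild-type (WT) B6 mice and pooled over slices, which gave 9 samples of 1 group with 829 cells. No treatment is named, so every comparison is between classes of cells within the same samples. The 810 cells classed as inhibitory neurons carry the results, but totals of whole samples and barcodes are over all 829 cells. A neuron was called positive for a gene at 1 or more counts per 10000 of its gene counts, with spike-in controls left out. The classes were 148 Sst-positive and 662 Sst-negative neurons, and, when Prkcd was read as well, 320 Prkcd-positive Sst-negative neurons, 125 Sst-positive Prkcd-negative neurons, 342 neurons negative for both and 23 positive for both.

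Both peptides are cut from the ends of longer precursors and bind the same family of receptors. The receptors couple to inhibitory G proteins of the Gi and Go class, which lower cyclic AMP, open potassium channels and restrain calcium channels, so that somatostatin usually quiets the cell it acts on. In the central amygdala, Sst marks a class of GABAergic neurons that is studied in fear learning beside a largely separate class marked by Prkcd, the gene for protein kinase C delta.

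The ends of the ligands' coding sequences show how alike the receptor-binding parts of both peptides are, and whether reads of one could be taken for the other. The last 14 codons before the stop are given from the GENCODE release M21 transcripts on GRCm38, 5′ to 3′, with capitals for the bases that are the same in both when the sequences are set off by 1 codon.
Sst: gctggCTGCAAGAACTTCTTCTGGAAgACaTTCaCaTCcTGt
Cort: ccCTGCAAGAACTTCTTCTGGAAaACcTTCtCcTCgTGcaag
Over the aligned stretch 31 of 39 bases were the same, and 21 of them formed 1 unbroken run. Sst lies on chromosome 16 and Cort on chromosome 4. Over their whole coding sequences the ligands matched at 69.9% of 296 aligned bases, with no longer shared run than that one. Among the 4 receptors, pairs of coding sequences matched at 65.8% to 72.6% of aligned bases, and their longest shared runs were 15 to 23 bases. In that annotation the span of Sstr2 overlaps that of Slc39a11 on the opposite strand, and the other members overlap no gene. Whether exons of Sstr2 and Slc39a11 overlap was not checked, and no source used here gives the strand of counting. It is therefore not known whether reads of Sstr2 and Slc39a11 could be told apart.

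The samples held 85 to 95 cells and 8522750 to 22730327 gene counts each, and the neurons had a median of 126576 gene counts. Gad1, Gad2 and Slc32a1 were each detected in every class. Cells were chosen for a positive level of any of these genes and against Slc17a6 and Slc17a7, which are on the excitatory list. Their detection, and the median of 0 for the excitatory list given next, were largely set by that choice and are no separate check. The genes of other cell types had a median summed level over samples, in counts per 1000000 gene counts (CPM), of 0 in the Sst-positive neurons for the excitatory, precursor, astrocyte, microglial, endothelial and cholinergic lists. Single samples lay higher. Astrocyte genes reached 32.8 CPM in Sst-positive neurons, against 3.49 CPM in Sst-negative ones. The cholinergic genes Chat and Slc5a7 were at 0 in all Sst-positive neurons but reached 95.9 CPM in Sst-negative ones, 97.8 CPM in Prkcd-positive neurons and 120 CPM in neurons negative for both. Their part in the results was not tested. Oligodendrocyte genes were found throughout, with a median of 114 CPM over samples (highest 158) in Sst-positive neurons and 115 CPM (highest 3259) in Sst-negative neurons. The samples shared cell barcodes: 376 distinct barcodes served all 829 cells, 283 of them in 2 samples and 85 in 3. The labels do not say that the samples are separate animals, so each p-value speaks of the spread between 9 samples that may be technical.

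Sst was found in most neurons, but nearly all of its counts were in few of them. No count was found in 360 neurons, 302 held a trace, which means at least 1 count but under 1 per 10000, and 148 were positive. Between no Sst and high Sst the levels were unevenly filled. There were 146 neurons under 0.1 per 10000, 129 at 0.1 to under 0.3 and only 27 at 0.3 to under 1. Above the threshold there were 21 neurons at 1 to under 3, 21 at 3 to under 10, 37 at 10 to under 30, 62 at 30 to under 100 and 7 at 100 or more. The positive neurons ran from 1.05 to 307 per 10000 with a median of 28.03, and the middle of the range, between its quartiles, was 7.96 to 47.4. The 62 neurons at 30 to under 100 held 59.5% of the 71625 Sst counts and the 7 highest held 23.6%. Few neurons lay at the threshold itself, with 4 at 0.8 to under 1 and 7 at 1 to under 1.2.

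**Figure D1:**
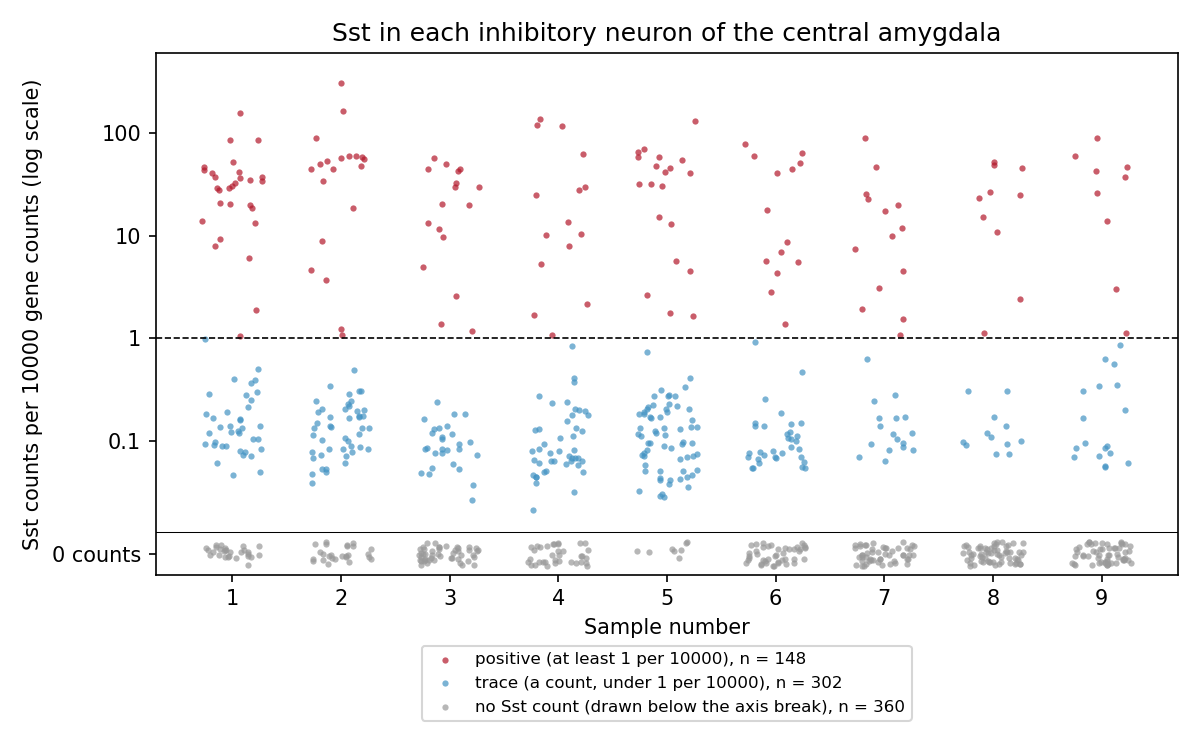
Sst counts per 10000 gene counts (log axis) in each of the 810 inhibitory neurons, by sample. The dashed line is the threshold of 1 per 10000; 148 neurons lie above it, 302 trace neurons below it, and 360 neurons without a count are drawn under the axis break. The positive neurons have a median of 28.03 and the trace neurons a median of 0.104 per 10000.

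Sst-positive neurons made up 18.1% ± 6.01 of the neurons of a sample (mean ± SD, n = 9 samples), between 10.7% in sample 9 and 30.5% in sample 1. Summed over the Sst-positive neurons of a sample, Sst stood at 1867 to 5517 CPM with a median of 3013. In the Sst-negative neurons it stood at 2.15 to 11.5 CPM with a median of 6.37. These classes were cut on Sst, so the gap between them is a description and no test was made.

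Trace Sst was a matter of very few counts. Of the 302 trace neurons, 156 held 1 Sst count, 74 held 2, 30 held 3 and 42 held 4 or more. Trace neurons were also sequenced more deeply, with a median of 143029 gene counts, against 115918.5 in neurons with no Sst count. A trace was found in 45.8% ± 23.3 of the Sst-negative neurons of a sample, or in 24.8% ± 13.6 once every cell was thinned at random to 50000 gene counts. Other peptide genes were also found below the positive level, in shares of the neurons negative for each gene. That share was 73.1% of 182 neurons for Penk, the enkephalin precursor, 25.4% of 700 for Tac2, 25.1% of 642 for Pdyn, the dynorphin precursor, 13.7% of 695 for Nts and 8.68% of 726 for Crh. Prkcd was found this way in 33.2% of 467 neurons.

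At matched depth, the share of trace neurons followed how much Sst the rest of the sample held. In samples 1 to 9 the thinned share was 40.6%, 47.1%, 15.8%, 29.1%, 34.3%, 21.1%, 12.9%, 9.86% and 12.2%. The Sst of the Sst-positive cells, in CPM of the whole sample and over all its cells, was 847, 1054, 356, 594, 842, 478, 363, 311 and 302 in the same order. Samples 1, 2 and 5 were the highest on both measures, and samples 3, 7, 8 and 9 the lowest on both. Across the 9 samples Pearson's r was 0.99 (exact permutation p = 1.65e-05, adjusted p = 4.96e-05 over 3 relations) and Spearman's rho was 0.97 (exact permutation p = 0.000165, adjusted p = 0.000496). Without samples 1 and 2, the farthest from the median level, r was 0.97 (exact permutation p = 0.000992). With the share of Sst-positive neurons r was 0.78 (exact permutation p = 0.00903, adjusted p = 0.0135) and rho 0.83 (exact permutation p = 0.00827, adjusted p = 0.0124), and without samples 1 and 9 r was 0.77 (exact permutation p = 0.0456). With the samples' median gene counts r was 0.37 (exact permutation p = 0.345, adjusted p = 0.345) and rho 0.57 (exact permutation p = 0.121, adjusted p = 0.121), and without samples 4 and 5 r was 0.30 (exact permutation p = 0.501). Each of the 3 animal numbers and 3 date fields holds 3 samples, too few for a correlation of its own. Within animal numbers 1, 2 and 3 and date fields 1 and 2 the samples had the same order on both measures. Within date field 3 they did not, with 363, 311 and 302 CPM in samples 7, 8 and 9 against 12.9%, 9.86% and 12.2%. All 3 samples of date field 3 were among the 4 lowest. With both measures centred on the animal number, a fit added after the data were seen, r over the 9 samples was 0.99 (exact permutation within animal numbers, p = 0.00463, the smallest it can give), and centred on the date field it was 0.98 (exact permutation within date fields, p = 0.00926).

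**Figure D2:**
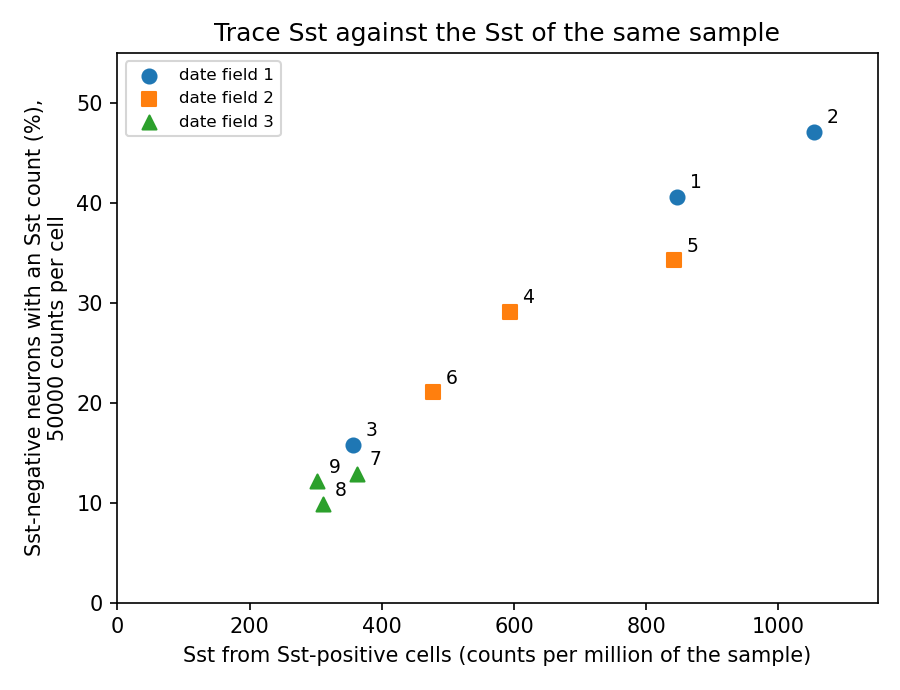
Share of Sst-negative neurons with an Sst count after thinning to 50000 counts per cell (%, vertical) against Sst from Sst-positive cells (CPM of the sample, horizontal). Each of the 9 points is 1 sample, marked by its date field. The points run from 9.86% at 311 CPM in sample 8 up to 47.1% at 1054 in sample 2.

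The Sst-negative neurons held a small part of each sample's Sst, 0.601% to 1.06% of the counts in 8 samples and 2.32% in sample 9. Their Sst level in samples 1 to 9 was 11.2, 9.11, 3.30, 6.37, 11.5, 5.24, 4.35, 2.15 and 8.42 CPM. The correlations given before are for the share of trace neurons only, not for this level. Sample 9 had the least Sst from Sst-positive cells, but its level here was above that of samples 3, 4, 6, 7 and 8. Of the 153 Sst-negative neurons whose barcode was also on an Sst-positive cell of another sample, 44.4% held a trace. Of the other 509 Sst-negative neurons 46.0% did. Averaged over samples these shares were 41.5% ± 25.7 and 45.8% ± 23.6 (SD, n = 9 each). Within samples the first share minus the second averaged -4.32 ± 15.2 percentage points, above 0 in 5 samples and below 0 in 4 (exact two-sided sign-flip permutation p = 0.453). The part that the Sst of other cells in the sample has in the trace was not tested.

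Neurons with a trace of Sst could not be told by edgeR from neurons without any by their other genes. Of 11215 genes, edgeR's quasi-likelihood test called 0 at an adjusted p under 0.05 (0.0% called), and 340 had an unadjusted p under 0.05, 172 higher and 168 lower in trace neurons. DESeq2 called 2 genes (0.0178%), 4930485B16Rik and Zfp472, both lower in trace neurons, which are named here because they were the only calls. Prkcd averaged 382 ± 121 CPM in trace neurons and 371 ± 183 CPM in neurons with no Sst count (SD, n = 9), a log2 difference of 0.10 ± 0.15 (SE; edgeR adjusted p = 0.9999). The opioid precursor Pdyn averaged 61.6 ± 57.3 CPM in trace neurons and 39.5 ± 36.3 CPM in neurons without a count. Its log2 difference of 0.78 ± 0.84 did not pass (adjusted p = 0.9999). Crh, Tac2 and Nts also leaned higher in trace neurons, by 0.81 ± 1.30, 0.66 ± 0.90 and 0.90 ± 0.71, and Penk lower by 0.15 ± 0.16. None of these 4 passed (adjusted p = 0.9999 for each). The receptors did not pass either. Sstr2 averaged 11.4 ± 10.2 CPM in trace neurons and 10.1 ± 6.63 CPM without a count, a log2 difference of 0.02 ± 0.72. Sstr3 averaged 6.19 ± 6.18 CPM in trace neurons and 2.03 ± 1.88 CPM without a count, a log2 difference of 1.42 ± 0.96 (adjusted p = 0.9999 for both). Cort, Sstr1 and Sstr4 had too few counts for that fit.

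For other markers of the nucleus, the shares of positive neurons with no Sst count and with a trace lay nearer to each other than to those in Sst-positive neurons. Pdyn was positive in 7.03% ± 4.73 of neurons with no Sst count, 8.68% ± 6.03 of trace neurons, 46.1% ± 29.4 of neurons with 1 to under 10 Sst counts per 10000 and 84.5% ± 9.18 of those with 10 or more (SD over 9, 9, 7 and 9 samples). Nts, the neurotensin precursor, was positive in 5.89%, 8.79%, 35.1% and 49.3% of neurons over the same levels. Tac2, the neurokinin B precursor, was positive in 7.48%, 8.51%, 33.1% and 46.2%, and Crh, corticotropin-releasing hormone, in 4.19%, 8.27%, 30.2% and 37.0%. Prkcd went the other way, with 48.0%, 50.4%, 27.7% and 9.74%, while Penk was common throughout at 81.0%, 79.1%, 73.5% and 69.8%. Each of these percentages is a mean over samples, and the steps between levels were not tested.

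**Figure D3:**
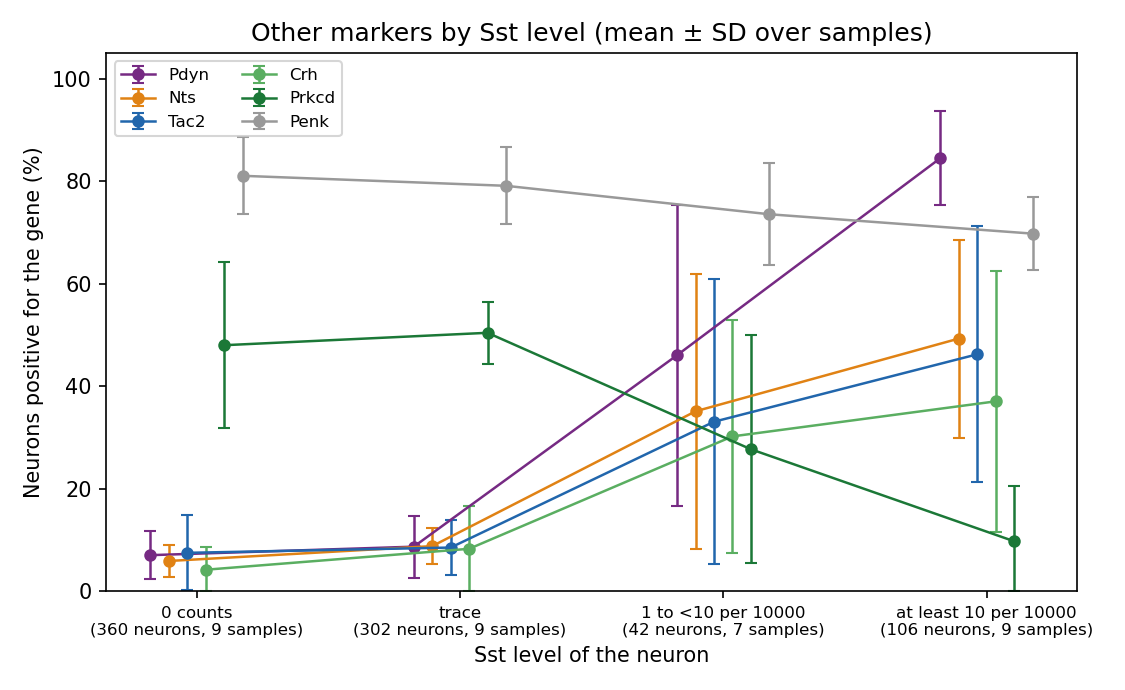
Percent of neurons positive for 6 other markers (vertical) at 4 levels of Sst (horizontal), as the mean over samples with error bars of 1 SD, cut at 0. For Pdyn, the mean is 8.68% in trace neurons and 84.5% in neurons with at least 10 Sst counts per 10000; for Prkcd it is 50.4% and 9.74%.

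Among the Sst-positive neurons themselves, high and low Sst were compared in the 7 samples with at least 5 cells of each. High neurons had at least 10 Sst counts per 10000 and low ones 1 to under 10. Over all 9 samples these were 106 cells (median 121480.5 gene counts) and 42 cells (median 155998). Samples 8 and 9, with 2 low cells each, did not enter the comparison. No ligand or receptor gene passed, and 0.107% of the 8376 genes tested were called, 8 higher and 1 lower in the high neurons. These calls moved with the samples and the tool, with 2 to 8 higher and 0 to 3 lower when a sample was left out, and 220 higher and 58 lower with DESeq2. The genes given here are named after their values were seen. Camk2n1, an inhibitor of CaM kinase II, averaged 316 ± 98.7 CPM in high neurons and 66.7 ± 46.6 CPM in low ones, a log2 difference of 2.49 ± 0.38 (SE; edgeR adjusted p = 0.0211). The transcription factor gene Meis2 was higher by 1.28 ± 0.15 on the log2 scale (adjusted p = 0.00643), and Sez6, Malat1, Arpp21 and Plcxd3 were higher by 0.53 to 1.56. Galnt14 had 538 counts in high neurons and 1 count in low ones, a 282-fold ratio of their CPM (95% counting interval 50.5 to 11180). Ap1s2, a subunit of a vesicle adaptor complex, was lower in high neurons by 2.69 on the log2 scale, at 41.3 ± 23.8 CPM in high neurons and 292 ± 176 CPM in low ones (adjusted p = 0.0252). Each of the 9 genes lay on its side in 7 of 7 samples. With each of the 7 samples left out in turn, Meis2 was called in 7 fits, Sez6 in 6, Camk2n1 in 3, Ap1s2 in 2, Galnt14, Malat1 and Arpp21 in 1 each and Plcxd3 in 0. Pdyn averaged 2218 ± 339 CPM in high neurons and 588 ± 659 CPM in low ones, higher in 7 of 7 samples, with an adjusted p of 0.197.

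For the members in that comparison, Sstr2 averaged 6.91 ± 10.1 CPM in high neurons and 10.3 ± 7.55 CPM in low ones, a log2 difference of -1.98 ± 1.64 (edgeR adjusted p = 0.881). Cort had 142 counts in high neurons and 0 in low ones, but 131 of those counts were in 1 cell. Sstr1 had 36 counts in high neurons and 0 in low ones, from 4 cells of 3 samples, with 22 counts in 1 cell. Neither passed without the filter (edgeR adjusted p = 0.938 for both), and so few cells set no lower limit on a fold. Sstr3 had 1 count in high neurons and 15 in low ones, and all 15 came from sample 3.

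Over cells, Pdyn was the gene whose level was most like that of Sst. Its Pearson correlation of log2(counts per 10000 + 1), computed within each sample and averaged over 9 samples, was 0.77 ± 0.06 (SD), the highest of 9899 genes. It was followed by Tmem90a at 0.59 ± 0.12, Pcp4, a calmodulin-binding peptide gene, at 0.55 ± 0.15, Spink8 at 0.53 ± 0.04 and Slc1a2, a glutamate transporter gene, at 0.52 ± 0.16. The lowest were Cpne7 at -0.48 ± 0.11, Ap1s2 at -0.40 ± 0.12 and the calcium pump gene Atp2b4 at -0.36 ± 0.05. Cells of a sample share its libraries and differ in depth, so these are descriptions. For Sstr2, the other member positive in at least 20 neurons, no gene reached 0.3, and the highest mean was 0.18.

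Cort was rare, with 433 counts in 27 neurons, and 30.3% of them were in 1 neuron. Only 6 neurons were positive for Cort. One of them, in sample 5, was Sst-positive at 131 Sst counts per 10000 and held 131 Cort counts. Another 4 were Prkcd-positive, at 9.06 to 12.4 Prkcd counts per 10000, and 1 was negative for both markers. The Prkcd-positive neurons thus held 263 Cort counts in 19 of 320 cells, against 28 counts in 5 of 342 cells negative for both. Of the 263 counts, 116 were in 1 cell of sample 5 and 31 in each of 2 cells of sample 6. Of the 28 counts, 22 were in 1 cell of sample 4. By sample, Cort stood at 0 to 15.5 CPM with a median of 2.80 in Prkcd-positive neurons, and at 0 to 2.58 CPM with a median of 0 in neurons negative for both. It was higher in Prkcd-positive neurons in 7 samples and at 0 in both classes in the other 2. Its counts were too low for the filtered fit, and without the filter the log2 difference was 4.45 ± 1.38 (SE), which did not pass (edgeR adjusted p = 0.0595).

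The receptor genes were found in few neurons. Sstr2 had 1234 counts in 91 neurons, Sstr3 had 428 in 34, Sstr4 had 129 in 35 and Sstr1 had 149 in 19. At the positive level there were 32 neurons for Sstr2, 7 for Sstr3, 3 for Sstr4 and 2 for Sstr1. No count of any of the 4 was found in 651 neurons, a count of 1 of them in 139, and of 2 in 20. No neuron was positive for 2 receptors at 1 per 10000. Counting every neuron with a count, Sstr2 and Sstr3 shared 11 neurons where independence would give 3.82, and Sstr1 and Sstr2 shared 5 where it would give 2.14. Sstr1 and Sstr3 shared 1 against 0.798, and Sstr2 and Sstr4 shared 3 against 3.93. Sstr4 shared 0 neurons with Sstr1, against 0.821, and 0 with Sstr3, against 1.47. The numbers under independence take no account of depth, sample or marker class. Of the neurons with a count, 64 of 91 for Sstr2 and 28 of 34 for Sstr3 were negative for both Sst and Prkcd. At the positive level none of the 6 pairs passed the exact sign-flip permutation test over samples, and only 3 pairs had the samples to give a p. The lowest p those pairs allowed was 0.125.

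No receptor passed the test between Sst-positive and Sst-negative neurons. Sstr2, which encodes the receptor that binds both peptides tightly and that is common in forebrain, was the only one of Cort and the 4 receptors with enough counts for the filtered fit. In Sst-positive neurons it ran from 0 to 18.8 CPM with a median of 5.67, and in Sst-negative neurons from 3.30 to 23.8 CPM with a median of 8.54. The ranges overlapped over most of their length. The means were 7.12 ± 6.49 CPM in Sst-positive and 11.5 ± 7.40 CPM in Sst-negative neurons (SD, n = 9), and Sst-positive neurons were lower in 7 of 9 samples. The log2 difference was -1.06 ± 0.77 (SE; edgeR adjusted p = 0.537), while 4.52% of the 11354 genes tested were called and the median over all of them was -0.17. Cells with a Sstr2 count made up 10.9% of Sst-positive and 11.1% of Sst-negative neurons (means over samples), at median depths of 129257.5 and 126302 gene counts. The Sst-negative class pools Prkcd-positive neurons, where Sstr2 averaged 3.18 CPM, with neurons negative for both, where it averaged 18.8 CPM. The comparison therefore depends on that mix.

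The other members were compared without the filter, where 2.11% of 22012 genes were called, and none of these members passed. Sstr3 had 16 counts in Sst-positive neurons, 15 of them in sample 3, and 412 in Sst-negative ones, and was lower in 7 of 9 samples. Its log2 difference was -5.02 ± 1.46 (SE; edgeR adjusted p = 0.1005). Sstr1 had 36 counts in Sst-positive and 113 in Sst-negative neurons, Sstr4 had 18 and 111, and Cort had 142 and 291 (adjusted p of 0.794, 0.653 and 0.653).

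The markers of the nucleus and genes that act around somatostatin signalling were counted between these classes, where 4.52% of all genes tested were called. All 6 listed central amygdala markers passed. Pdyn averaged 1558 ± 489 CPM in Sst-positive and 54.4 ± 27.5 CPM in Sst-negative neurons (log2 difference 4.95 ± 0.20, edgeR adjusted p = 2.15e-09), and Nts, Crh and Tac2 were higher by 3.48, 3.35 and 2.79. Prkcd and Penk were lower in Sst-positive neurons by 2.87 and 1.24. Of 5 Gi and Go subunit genes only Gnai1 passed, at 261 ± 156 CPM in Sst-positive and 156 ± 48.3 CPM in Sst-negative neurons (log2 difference 0.67 ± 0.14, adjusted p = 0.0169). Of 6 prohormone-processing genes, Pcsk2, a convertase of dense-core vesicles, was higher in Sst-positive neurons by 1.55 ± 0.29 (adjusted p = 0.00672). Cpd, a carboxypeptidase gene, was lower there by 1.33 on the log2 scale (adjusted p = 0.00339). None passed of 7 adenylyl cyclases, 2 G protein-gated potassium channels, 2 calcium channel subunits and 6 receptor kinases and arrestins. The same held for 1 phosphatase, 4 peptide-degrading enzymes and 6 genes for CREB-type factors of the Sst promoter and their coactivators. Of 7 tested genes typical of cortical Sst interneurons only Chodl passed, and it was lower in Sst-positive neurons, by 2.07 on the log2 scale (adjusted p = 0.0242). Chodl averaged 228 ± 61.9 CPM in Prkcd-positive Sst-negative neurons and 51.7 ± 20.4 CPM in neurons negative for both. In Sst-positive Prkcd-negative neurons it averaged 50.1 ± 55.2 CPM. Npy of the same list, named though it did not pass, had a log2 difference of 5.68 ± 1.55 (SE; edgeR adjusted p = 0.0616). It averaged 947 ± 1964 CPM in Sst-positive and 5.05 ± 6.52 CPM in Sst-negative neurons (SD), higher in 5 samples and lower in 2. Only 6 Sst-positive neurons were positive for Npy, so the difference does not describe that class as a whole.

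Sstr2 was lower in Prkcd-positive neurons than in neurons negative for both markers. In Prkcd-positive neurons Sstr2 ran from 0 to 9.10 CPM with a median of 1.42, and in neurons negative for both from 5.71 to 41.7 CPM with a median of 14.9. The ranges met only between 5.71 and 9.10 CPM, and within a sample Prkcd-positive neurons were lower in 9 of 9. The means were 3.18 ± 3.58 CPM in Prkcd-positive neurons and 18.8 ± 12.2 CPM in neurons negative for both (SD, n = 9). The log2 difference was -3.13 ± 0.69 (SE; edgeR adjusted p = 0.00566), in a comparison that called 16.8% of 11190 genes and 9.35% of them lower, so that such a call was common. Sstr2 was detected in 3.15% ± 2.57 of Prkcd-positive neurons and in 19.2% ± 7.59 of those negative for both, at median depths of 120150.5 and 131822.5 gene counts. After thinning to 50000 counts per cell the difference in share was -13.6 ± 8.08 percentage points, below 0 in 9 of 9 samples.

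The difference held its sign within animal numbers and date fields. As a mean difference of log2(CPM + 1) it was -1.93, -2.70 and -2.86 for animal numbers 1 to 3, and -2.39, -2.37 and -2.74 for date fields 1 to 3. Slc39a11, the gene on the opposite strand, averaged 48.0 ± 14.8 CPM in Prkcd-positive neurons and 43.5 ± 17.9 CPM in neurons negative for both, a log2 difference of 0.22 ± 0.25 (edgeR adjusted p = 0.627). Oligodendrocyte genes summed to a median of 147 CPM over samples (118 to 210) in Prkcd-positive neurons and 86.5 CPM (50.3 to 5762) in neurons negative for both. Without Mbp-positive cells the Sstr2 difference was -3.51 (adjusted p = 0.0384). The call was lost when a single count made a cell positive for Prkcd or Sst, which left 7 samples (log2 difference -3.20 ± 1.09, adjusted p = 0.234).

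Sstr3 had almost no counts in Prkcd-positive neurons. There were 3 of them, 1 in each of 3 samples, and 409 counts in neurons negative for both, where it ran from 0 to 15.8 CPM with a median of 5.59. The 409 counts lay in 28 of 342 cells, and the 3 counts in 3 of 320. In CPM over all samples the neurons negative for both were 114-fold higher. The 95% counting interval, 38.7 to 555, treats every count as independent and leaves out the spread between cells and samples. Within samples, Sstr3 was lower in Prkcd-positive neurons in 8 of 9 and tied at 0 in sample 7. Its counts were too low for the filtered fit. Without the filter the log2 difference was -6.24 ± 1.05 (SE; edgeR adjusted p = 0.000665), where 8.58% of genes were called and 5.21% were lower. Sstr1 had 16 counts in Prkcd-positive neurons and 97 in neurons negative for both, and Sstr4 had 43 and 68. Neither passed without the filter (adjusted p of 0.215 and 0.626).

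**Figure D4:**
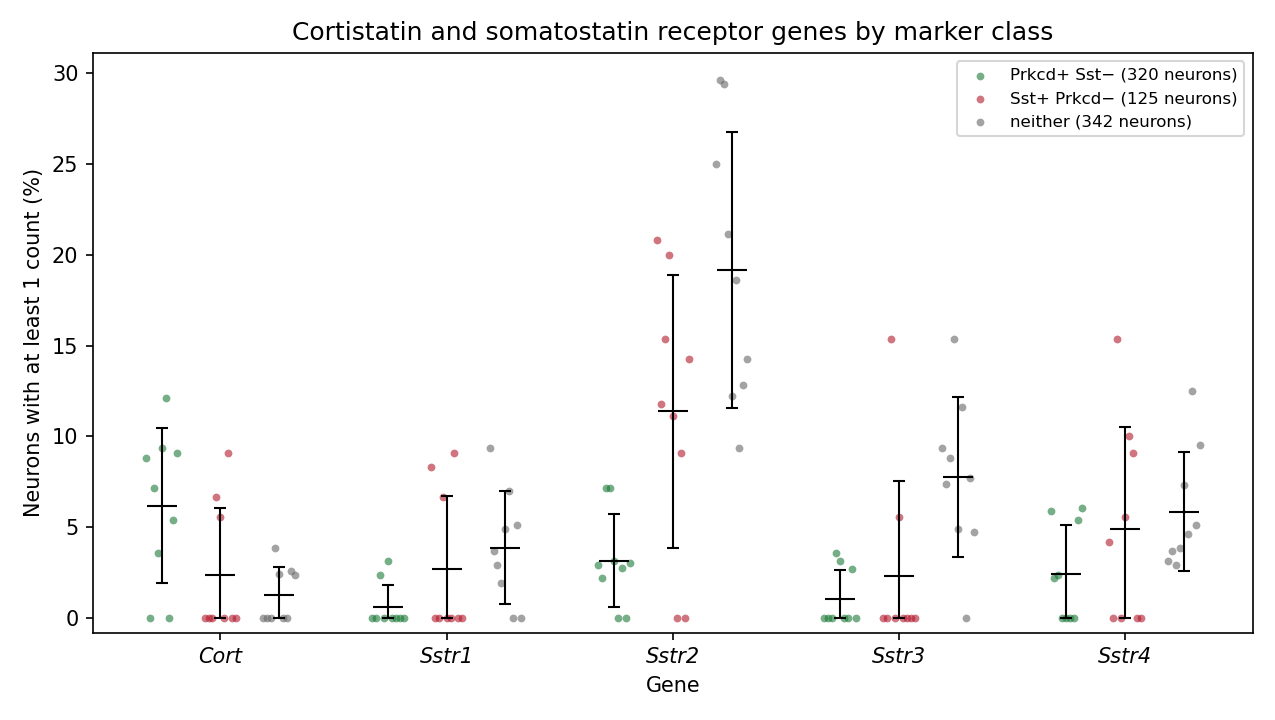
Percent of neurons with at least 1 count of Cort and of each of the 4 receptor genes (vertical), in Prkcd-positive Sst-negative, Sst-positive Prkcd-negative and doubly negative neurons. Each point is 1 of 9 samples, the long bar is the mean, and the error bars are 1 SD, cut at 0. For Sstr2 the means are 3.15%, 11.4% and 19.2%.

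Against Sst-positive Prkcd-negative neurons, the Prkcd-positive ones were not lower in Sstr2 by the test. Sstr2 stood at 0 to 9.10 CPM in Prkcd-positive neurons and at 0 to 23.7 CPM in Sst-positive ones, with medians of 1.42 and 7.49, and the ranges overlapped. The means were 3.18 ± 3.58 and 8.23 ± 8.495 CPM in the same order (log2 difference -1.40 ± 0.77, edgeR adjusted p = 0.343, with 8.42% of 10396 genes called). Cells with a Sstr2 count made up 3.15% of Prkcd-positive and 11.4% of Sst-positive neurons, lower in Prkcd-positive neurons in 7 samples and higher in 0. Sstr3 had 3 counts in Prkcd-positive and 16 in Sst-positive neurons. A count of any of the 4 receptors was found in 7.25% ± 3.96 of Prkcd-positive neurons (23 of 320), 19.5% ± 11.6 of Sst-positive ones (26 of 125) and 31.8% ± 6.11 of those negative for both (108 of 342). The order of the Sst-positive and doubly negative classes was not tested. In neurons positive for the transcription factor genes Isl1 and Nr2f2, classes that overlap the ones above, Sstr2 averaged 7.31 ± 7.85 and 10.9 ± 10.5 CPM, within the spread of all neurons at 10.7 ± 6.49 CPM.

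Several genes that act after the receptors also differed between Prkcd-positive neurons and those negative for both, and they are named after their values were seen. Of 7 adenylyl cyclases, Adcy5, the main one of striatal neurons, was higher in Prkcd-positive neurons by 0.52 ± 0.14 on the log2 scale, and Adcy1, Adcy2, Adcy3 and Adcy7 were lower by 1.86, 1.54, 0.95 and 4.38 (edgeR adjusted p of 0.0160 to 0.0287 over the 5). Gnai1 was lower as well, at 124 ± 52.9 CPM in Prkcd-positive neurons and 184 ± 59.3 CPM in neurons negative for both (edgeR adjusted p = 0.0113). The arrestin gene Arrb1 was lower by 1.10 and the receptor kinase gene Grk5 higher by 1.99, and the other 4 of that list did not pass. Neither tested G protein-gated potassium channel gene passed. Of the processing genes, Cpd and Cpe were higher by 2.31 and 0.55, Pcsk2 was lower by 1.34, and 3 did not pass. In this comparison 16.8% of all genes tested were called, and no test set the lists against that share.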

How the data were processed

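The values are raw counts per gene and cell, as the authors deposited them, with an animal number and a date field for every cell. The submitters' processing notes name the build NCBIM37 and the tool Seurat. Aligner, strand and any molecular identifiers are not stated in the sources at hand, so counts may hold PCR copies and intervals cover counting error only. The 91 ERCC rows were dropped. Inhibitory neurons were positive for at least one of Gad1, Gad2 and Slc32a1 and not for Slc17a6 or Slc17a7, and 19 cells that were not entered no comparison. No depth filter was applied (9 neurons had under 20000 counts, the lowest 401) and no doublet caller was run.

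Sums of counts over the cells of a class were made in each sample with 5 or more cells in both classes and tested with edgeR 4.0.16 in R 4.3.3 (quasi-likelihood test, TMM scaling, filterByExpr, a sample block, Benjamini-Hochberg adjustment over all genes, threshold 0.05), after a test on simulated data. Genes that chose the classes were not tested. Other tools were DESeq2 1.42.0, Python 3.11.15, numpy 2.4.6, pandas 2.3.3 and scipy 1.17.1. Thinning used seed 7. Odds ratios of pairs used an addition of 0.5 to every cell count of the table. Alternatives were median-of-ratios scaling, DESeq2, no filter, no sample block, thinning, at least 10 cells per class, all deposited cells, cells under 20000 counts or positive for Mbp left out, each sample left out, and positive at 1 count or at 3 per 10000.

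Named are the members, Prkcd, every tested central amygdala marker, up to 4 passing genes of each other list, and genes most like a member (mean r of at least 0.3, or -0.2 and below for Sst); exceptions are marked, and some genes that met these rules are not reported here. The members, lists and tests were chosen with earlier results of these data known. Sequences come from the GENCODE release M21 transcripts, whose build differs from the files', so no coordinates are given.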

Additional observations from a re-analysis of the deposited data

Results flagged for a closer look

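For 33 sets of 9 sample values, the sample farthest out was set against the others, and 11 sets had a sample whose gap to the next, as a share of the whole range, exceeded Dixon's 95% critical value. A chance rate of about 1 in 20 holds only for independent sets of normally distributed values. Many of these sets are skewed and hold zeros, and some classes lie within others, so the flagged number is not set against that rate. Most of the flagged sets rest on few counts in 1 or a few cells. Cort in Sst-positive neurons reached 28.5 CPM in sample 5, with a next value of 3.61, and 32.5 CPM among those without Prkcd; all 131 counts were in 1 cell. Cort in neurons negative for both stood at 2.58 CPM in sample 4, with a next value of 0.509. Sstr1 in Sst-positive neurons was 7.95 CPM in sample 4, with next values of 2.83 and, without Prkcd-positive cells, 3.59. Sstr3 in Sst-positive neurons was 7.07 CPM in sample 3, and 9.55 CPM among those without Prkcd, with next values of 0.218 and 0.248. Sstr4 was 6.41 CPM in Prkcd-positive neurons of sample 1, with a next value of 1.71, and 8.88 CPM in neurons negative for both of sample 7, with a next value of 1.78. Sst in Sst-positive Prkcd-negative neurons was 6856 CPM in sample 2, with a next value of 4424. The share of a sample's Sst counts that lay in Sst-negative neurons was 2.32% in sample 9, with a next value of 1.06%.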

How the results depend on the processing

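The number of members that passed was 0 under all settings run for Sst-positive against Sst-negative, Prkcd-positive against Sst-positive, trace against no count, and high against low Sst. These zeros say little: Sstr2 was the only member tested in most settings, with Sstr3 beside it in most settings of trace against no count, and no member was tested for Prkcd-positive against Sst-positive at 3 per 10000 or after thinning, or for high against low Sst after thinning or without sample 1. For Prkcd-positive neurons against those negative for both it was 1, Sstr2, under 18 of 20 alternatives, became 2 with no filter, which adds Sstr3, and 0 when 1 count made a cell positive. The Sstr2 difference stayed negative throughout, -3.51 to -2.53, and -3.47 to -2.81 with each sample left out. Without the sample block it was -2.53 (edgeR adjusted p = 0.0103). Of the receptor pairs 5 passed when 1 count made a cell positive, but these include 2 pairs with 0 shared neurons, since 0.5 was added to each cell of the table, so nothing is read from them.

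Counts over all genes moved more. For Sst-positive neurons 256 genes were higher and 257 lower; DESeq2 gave 465 and 884, positive at 1 count 13 and 0, leaving out Mbp-positive cells 96 and 103, and leaving out a sample 170 to 251 and 145 to 226. Prkcd-positive against Sst-positive neurons gave 454 and 421, and 1018 and 736 with DESeq2, 124 and 92 at 1 count, and 217 and 192 without Mbp-positive cells. Prkcd-positive neurons against those negative for both gave 831 and 1046, and 59 and 32 at 1 count. High against low Sst gave 8 and 1, and 220 and 58 with DESeq2, 59 and 10 with no filter, 15 and 2 without the block, 20 and 5 after thinning, and 2 to 8 and 0 to 3 with a sample left out. The cause of these shifts was not tested. High against low Sst was not run at 10 cells per class or without Mbp-positive cells, where too few samples remained. Cort, Sstr1, Sstr3 and Sstr4 had 129 to 433 counts over all neurons, where limited depth and low expression cannot be told apart.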

Other observations

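The following genes and cells were chosen after their values were seen. Sstr5, the fifth receptor gene, had 1107 counts in 85 neurons, 34 of them positive. It averaged 16.7 ± 13.6 CPM in Sst-positive and 7.54 ± 4.799 CPM in Sst-negative neurons (SD, n = 9; log2 difference 1.07 ± 0.96, edgeR adjusted p = 0.630). In Prkcd-positive neurons it averaged 2.41 ± 2.36 CPM, against 12.1 ± 9.09 CPM in neurons negative for both, lower in 8 of 9 samples (log2 difference -2.57 ± 1.06, edgeR adjusted p = 0.123). Against Sst-positive Prkcd-negative neurons the difference was -2.91 ± 1.08 (edgeR adjusted p = 0.135). Its coding sequence shares a run of 41 bases with that of Sstr3; how reads were divided between them was not tested.

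The 7 neurons with at least 100 Sst counts per 10000 were of unlike make-up. One in sample 2 and one in sample 5 held 485 and 620 counts per 10000 of Npy, the neuropeptide Y precursor, and 20.4 and 22.9 of Nos1, the neuronal nitric oxide synthase gene. Their Pdyn was 0.12 and 0 per 10000. The other 5 held 13.7 to 51.3 of Pdyn and 0 to 0.043 of Npy. Npy was positive in 12 neurons in all, 6 of them Sst-positive, and 4 neurons had counts of all of Npy, Nos1, Chodl and Tacr1, 3 of them Sst-positive. The Sst-positive cell of sample 5 with 131 Cort counts was one of the pair rich in Npy.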
